A study of Mus musculus with 14 samples.

Results

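The 10 genes described here are Fos, Fosb, Fosl1 and Fosl2, Jun, Junb and Jund, Atf3, Egr1 and Dusp1, a set of AP-1 subunits and immediate early genes of the mouse, chosen by name and matched to the gene-name column of the deposited expression table. All 10 had a row among the 23793 named loci of the part of the table that holds alveolar type 1 (AT1) cells and whole lung. In the part that holds alveolar type 2 (AT2) cells, with 31168 named loci, 7 had one, and Fos, Fosl1 and Egr1 were not analysed there. RNA was sequenced from 14 libraries of lungs in which the homeobox gene Nkx2-1, a regulator of lung epithelial identity, was mutated, and of their controls. The AT1 cells were labelled Nkx2-1;Aqp5, were sorted at postnatal day 5, and gave 3 mutant and 3 control libraries, A to C in each group. The AT2 cells were labelled Nkx2-1;Sftpc and also gave 3 mutant and 3 control libraries, with A and B from postnatal day 8 and C from postnatal day 9 in both groups. Whole lobes at postnatal day 14, labelled Nkx2-1;Aqp5, gave 1 mutant and 1 control library. The sources used here name neither the Nkx2-1 allele, nor what it deletes, nor the full control genotype, nor the way AT2 cells were isolated. Aqp5 and Sftpc are genes typical of AT1 and AT2 cells. Nothing in the labels says that the libraries came from separate animals, so a p-value measures the spread between these libraries.

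AP-1 is a transcription factor built as a pair of basic leucine zipper proteins, one Jun protein with a Fos, Jun or ATF partner. Fos, Fosb, Jun, Junb, Egr1, Atf3 and Dusp1 are transcribed within minutes of a stimulus without new protein synthesis, which is why such genes are called immediate early. Growth factors, mechanical stress and the handling of tissue during cell isolation are known to induce them through MAP kinases, and Dusp1 encodes a phosphatase that switches those kinases off again. Fosl1 and Fosl2 encode later Fos-family partners, Jund encodes a Jun protein that is usually present before a stimulus, and Egr1 encodes a zinc finger factor of the same early wave.

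The promoters of 4 members are shown because these genes carried the largest differences or stood apart from the rest: Dusp1 fell most in AT2 cells, Fos and Atf3 had the largest ratios in whole lung, and Jun went the other way there. RefSeq promoter windows of the GRCm38.p6 build, from 250 bases before the transcription start to 50 from it, were matched for 8 of the 10 genes. No window was used for Fosl1 and Egr1. The windows printed lie at chr12:85473640-85473939 on the plus strand for Fos, and on the minus strand at chr4:95052173-95052472 for Jun, chr1:191183284-191183583 for Atf3 and chr17:26508423-26508722 for Dusp1. Capitals mark TGACG on either strand (the core of the cAMP response element, bound by CREB and ATF proteins), the full element TGACGTCA, and TGACATCA or TTACCTCA, the AP-1-like sites known from the Jun promoter.
Fos: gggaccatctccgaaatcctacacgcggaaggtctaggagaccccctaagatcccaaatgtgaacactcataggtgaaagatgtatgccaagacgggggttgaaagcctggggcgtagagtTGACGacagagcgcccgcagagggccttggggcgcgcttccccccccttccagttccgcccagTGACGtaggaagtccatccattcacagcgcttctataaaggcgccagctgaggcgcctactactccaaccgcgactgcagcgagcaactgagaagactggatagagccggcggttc
Jun: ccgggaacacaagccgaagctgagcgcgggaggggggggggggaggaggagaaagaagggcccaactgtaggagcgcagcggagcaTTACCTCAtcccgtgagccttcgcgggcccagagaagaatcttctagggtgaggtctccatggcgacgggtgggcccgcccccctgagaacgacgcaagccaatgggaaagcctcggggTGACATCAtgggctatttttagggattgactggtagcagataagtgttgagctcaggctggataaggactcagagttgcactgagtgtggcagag
Atf3: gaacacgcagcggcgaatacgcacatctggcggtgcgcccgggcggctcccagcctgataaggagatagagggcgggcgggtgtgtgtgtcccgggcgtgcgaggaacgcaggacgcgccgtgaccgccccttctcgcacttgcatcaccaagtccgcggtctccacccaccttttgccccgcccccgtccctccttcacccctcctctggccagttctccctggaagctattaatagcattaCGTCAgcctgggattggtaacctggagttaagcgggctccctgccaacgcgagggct
Dusp1: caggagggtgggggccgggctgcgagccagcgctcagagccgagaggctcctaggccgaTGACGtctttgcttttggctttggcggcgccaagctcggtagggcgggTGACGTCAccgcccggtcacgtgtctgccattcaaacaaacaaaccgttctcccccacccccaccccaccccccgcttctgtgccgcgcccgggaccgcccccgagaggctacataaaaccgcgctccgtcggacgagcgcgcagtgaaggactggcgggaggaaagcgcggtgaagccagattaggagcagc

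In all, 8 motifs were searched in 2 rounds, on both strands except for the TATA box, which was searched on the gene's own strand only. The first 6 were the serum response factor site known as the CArG box, the full cAMP response element, the AP-1 site (TGACTCA or TGAGTCA), the EGR site (GCGTGGGCG or GCGGGGGCG), the NKX2 core CAAGTG and the TATA box TATAAA. The other 2, the core TGACG and the AP-1-like sites of Jun, were added after the members' windows had been read, so their counts among the members are not independent of the sequences. The full element TGACGTCA was found in 1 of 8 member windows, Dusp1, at -143 to -136 with the start at 0, and in 1.79% of the 32851 windows in the table. The core TGACG, which lies inside the full element, was found in 5 of 8 (Fos, Fosb, Junb, Atf3, Dusp1) and in 20.8% of all windows. The AP-1-like sites were found in 1 of 8, Jun, at -164 to -157 and -45 to -38, and in 4.47% of all windows. The EGR site was found in Fosb and Fosl2 (3.47% of all windows), TATAAA in Fos and Junb (8.32%) and the NKX2 core in Atf3 (13.6%). The TATAAA of Fos lay at -33 to -28, but that of Junb at 0 to 5, on the annotated start itself. The CArG box (1.63% of all windows) and the AP-1 site (5.2%) had no match in these 8 windows. Sequence further upstream was not searched, and neither were Fosl1 and Egr1. The search therefore cannot tell whether the members lack these sites.

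Values are FPKM, fragments scaled by transcript length and by the size of the library, as the authors deposited them. Nkx2-1 itself was lower in the mutants: 22.8 to 68.2 FPKM in mutant and 240 to 281 FPKM in control AT1 libraries, 59.0 to 74.4 and 247 to 353 FPKM in mutant and control AT2 libraries, and 52.1 against 101 FPKM in the lung libraries. The summed level of 8 AT1 markers, Ager among them, was 1143 to 2426 FPKM in mutant and 8094 to 9896 FPKM in control AT1 libraries, and the summed level of 7 AT2 markers was 1737 to 3425 FPKM in mutant and 81716 to 109724 FPKM in control AT2 libraries. The AT1 libraries also held the AT2 gene Sftpc, at 2311 to 9584 FPKM in mutants and 6728 to 15305 FPKM in controls. These are bulk libraries, in which fewer cells of a type and less RNA per cell cannot be told apart. The depth of each library is unknown, so no counting error is attached to an FPKM value.

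Levels differed widely between the members. In mutant AT1 cells Fos had the highest mean, 909 ± 188 FPKM (SD, n = 3), followed by Jun, Junb, Atf3, Egr1, Dusp1, Jund, Fosb, Fosl2 and Fosl1. In control AT1 cells Fos was again highest, at 1328 ± 186 FPKM (SD, n = 3), followed by Jun, Dusp1, Egr1, Junb, Fosb, Atf3, Jund, Fosl2 and Fosl1. In both groups the ranges of neighbours in this order overlapped, except that Fos stood above Jun, Fosl2 below the gene before it, and Fosl1 below Fosl2. Among the 7 genes measured in AT2 cells, Jun had the highest mean in mutants (421 ± 38.3 FPKM) and in controls (1241 ± 993 FPKM; SD, n = 3 each), and Fosl2 the lowest (19.1 ± 1.63 FPKM in mutants and 21.2 ± 2.45 FPKM in controls). In between came Jund, Junb, Atf3, Fosb and Dusp1 in mutants, and Junb, Jund, Dusp1, Atf3 and Fosb in controls. The ranges of neighbours overlapped in mutants for Jund and Junb, Atf3 and Fosb, and Fosb and Dusp1, and in controls for all but Fosb and Fosl2.

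**Figure D1:**
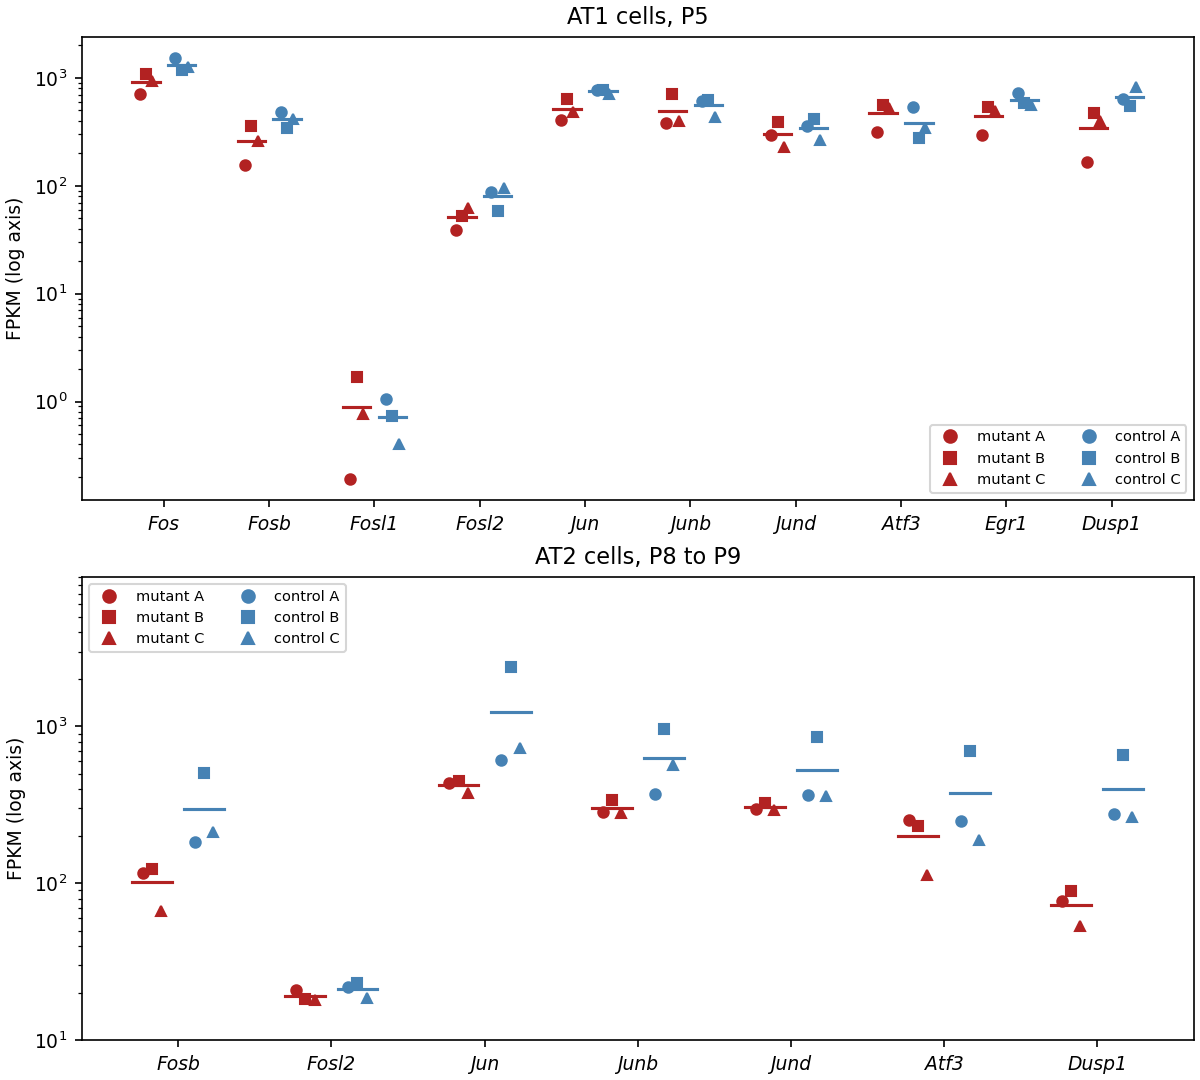
FPKM (log axis) of each gene in every AT1 library (upper panel) and AT2 library (lower panel), mutants in red left of controls in blue; marker shapes stand for the letters A, B and C and lines for group means. AT1 mutant A is the lowest library for 8 of 10 genes, and in AT2 cells mutant C is the lowest and control B the highest for 7 of 7.

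The AT1 comparison asks how loss of Nkx2-1 in AT1 cells bears on gene expression at postnatal day 5. No member passed the test in mutant AT1 cells, although most tended to lower values. Of the 10 genes 9 had at least 1 FPKM in 3 libraries and were tested, and none was called higher or lower by limma on log2(FPKM + 1) with Benjamini-Hochberg adjustment over all 12612 loci tested, where 6.22% were called lower and 11.6% higher. The log2 change was below 0 for 8 of the 9, with a median of -0.56 against 0.00065 over all loci tested, and 5 had an unadjusted p under 0.05. The size of this shift leaned on mutant A, the lowest of the 6 libraries for 8 of 10 genes: without it Dusp1 stood at -0.62 and Fos at -0.39. The main fit did not pair the libraries by letter. With a replicate block, which does, no AT1 member was called either, and Dusp1 had the lowest limma adjusted p, 0.072. The summed endothelial markers were also lower in the mutants, 193 to 244 FPKM against 343 to 654 FPKM in control AT1 libraries, and their part in the members' values was not tested.

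Of the Fos proteins, Fos had 710, 1083 and 935 FPKM in mutant libraries A, B and C, against 1537, 1182 and 1265 FPKM in control libraries A, B and C. Every mutant library lay below every control library, with a log2 change of -0.56 ± 0.23 (SE) and limma adjusted p = 0.125. Fosb, which encodes a close relative of Fos, had 155, 360 and 260 FPKM in mutants A, B and C and 480, 343 and 416 FPKM in controls A, B and C. Mutant B lay above control B, so the groups overlapped, and the log2 change was -0.74 ± 0.30 (SE; limma adjusted p = 0.123). Fosl2 had 39.2, 52.1 and 62.7 FPKM in the mutants and 88.2, 57.9 and 94.6 FPKM in the controls. Its groups overlapped through mutant C and control B, and its log2 change was -0.63 ± 0.24 (SE; limma adjusted p = 0.103). Without control B it was called lower, at -0.84 with limma adjusted p = 0.0393. Fosl1 had 0.191, 1.69 and 0.763 FPKM in the mutants and 1.05, 0.728 and 0.405 FPKM in the controls, under the filter, and was not tested.

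Of the Jun proteins, Jun had 406, 641 and 488 FPKM in mutants A, B and C, against 777, 765 and 716 FPKM in controls A, B and C. All mutants lay below all controls, with a log2 change of -0.58 ± 0.21 (SE; limma adjusted p = 0.0884). Junb had 381, 712 and 398 FPKM in the mutants and 615, 622 and 432 FPKM in the controls, with mutant B the highest of all 6 libraries. Jund had 294, 392 and 229 FPKM in the mutants and 362, 413 and 265 FPKM in the controls. These groups overlapped widely. The log2 change was -0.20 for Junb (95% confidence interval -0.86 to 0.45; limma adjusted p = 0.635) and -0.19 for Jund (interval -0.77 to 0.38; limma adjusted p = 0.609).

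Dusp1, the MAP kinase phosphatase, had 166, 472 and 395 FPKM in mutants A, B and C, against 636, 551 and 827 FPKM in controls A, B and C. It had the largest log2 change of the tested members, -1.07 ± 0.38 (SE), and limma adjusted p = 0.0872, with no overlap between groups. Egr1 had 294, 541 and 496 FPKM in the mutants and 723, 591 and 561 FPKM in the controls, also without overlap, and a log2 change of -0.53 ± 0.26 (SE; limma adjusted p = 0.179). Atf3, which encodes a stress-induced partner and repressor, had 318, 566 and 523 FPKM in the mutants and 533, 276 and 345 FPKM in the controls. It was the one tested member with a change above 0, 0.30 ± 0.31 (SE; limma adjusted p = 0.52), and its groups overlapped. In all, every mutant library lay below every control library for 4 of 10 members (Fos, Jun, Egr1 and Dusp1), against 16.5% of the loci tested. Within letters, every mutant lay below the control of its letter for 6 of 10 (those 4, Fosl2 and Jund), against 32.5% of the loci tested.

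**Figure D2:**
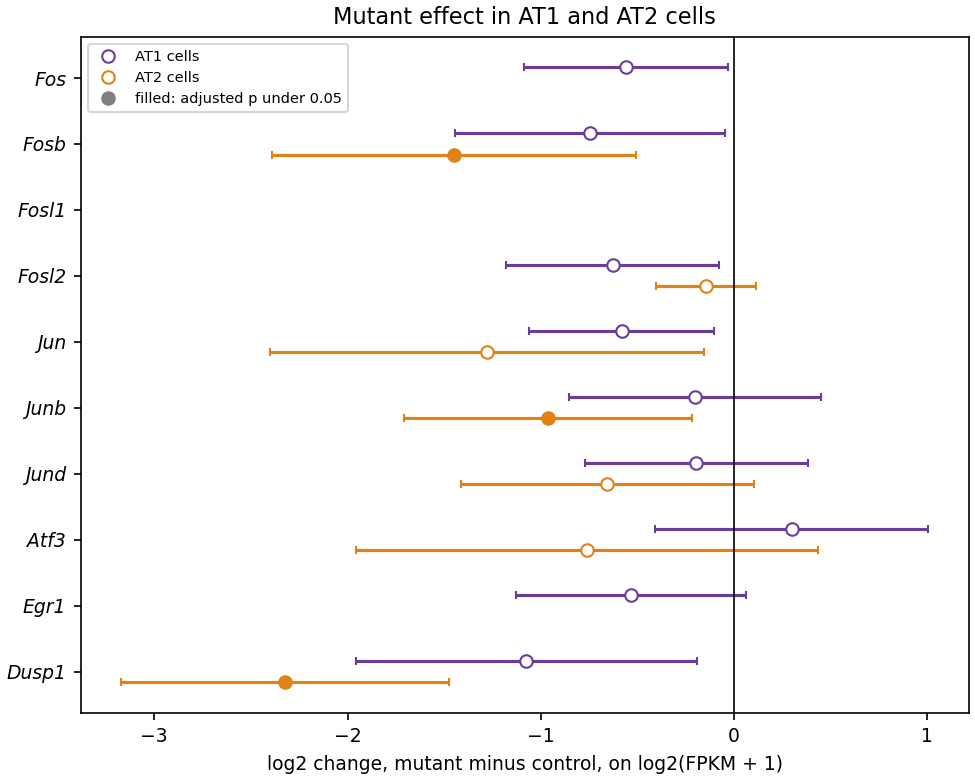
Log2 change of each gene, mutant minus control, on the log2(FPKM + 1) scale from limma, with 95% confidence intervals, in AT1 cells (purple) and AT2 cells (orange); filled points have an adjusted p under 0.05. Fosb, Junb and Dusp1 in AT2 cells are the filled points; Fosl1 was not tested, and Fos and Egr1 were tested in AT1 cells only.

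The AT2 comparison asks the same of Nkx2-1 loss in AT2 cells at postnatal days 8 and 9. Dusp1, Fosb and Junb were lower in the mutant AT2 cells, Dusp1 the most. All 7 members measured passed the filter, 3 were called lower and none higher, where 22.3% of 11610 loci tested were called lower and 32.4% higher. The log2 change was below 0 for all 7, with a median of -0.96 against 0.093 over all loci tested, although Fosl2 turned to 0.41 and 0.14 when libraries were rescaled to equal summed FPKM with and without mitochondrial and small RNA loci. Every mutant library lay below every control library for 5 of 7 (Fosb, Jun, Junb, Jund and Dusp1), against 26.3% of the loci tested.

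Dusp1 had 77.3, 88.9 and 53.5 FPKM in mutants A, B and C, against 278, 653 and 263 FPKM in controls A, B and C. Its log2 change was -2.32 ± 0.36 (SE; limma adjusted p = 0.0015), and the highest mutant lay well under the lowest control. It was called in all 15 alternatives run, with log2 changes from -2.55 to -1.74 and limma adjusted p from 8.77e-07 to 0.0103. Fosb had 116, 124 and 66.1 FPKM in the mutants and 184, 502 and 213 FPKM in the controls, without overlap, and a log2 change of -1.45 ± 0.40 (SE; limma adjusted p = 0.0185). Without mutant C its limma adjusted p was 0.0612.

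Among the Jun genes, Junb had 286, 342 and 280 FPKM in mutants A, B and C and 373, 957 and 571 FPKM in controls A, B and C. The groups did not overlap, and the log2 change was -0.96 ± 0.32 (SE; limma adjusted p = 0.0358). The call was lost without mutant A, B or C (limma adjusted p = 0.0923, 0.0614 and 0.101) and without control C (0.0656), while the log2 change stayed between -1.05 and -0.91 in these 4 fits. Jun had 439, 447 and 377 FPKM in the mutants and 609, 2386 and 728 FPKM in the controls. Control B was more than 3 times the other controls, and the change of -1.28 ± 0.48 (SE) did not pass, with limma adjusted p = 0.0551. Without control B the change was smaller, -0.66, but passed, with limma adjusted p = 0.00901, and it also passed without control A (0.0297) or control C (0.0493). It did not pass without mutant A, B or C (limma adjusted p = 0.106, 0.106 and 0.137). Of 15 alternatives run, 6 called Jun.

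Jund had 296, 327 and 295 FPKM in mutants A, B and C and 364, 850 and 362 FPKM in controls A, B and C, without overlap, at a log2 change of -0.66 (95% confidence interval -1.41 to 0.10; limma adjusted p = 0.123). Atf3 had 254, 233 and 113 FPKM in the mutants and 249, 694 and 190 FPKM in the controls, with mutant A above controls A and C, and a log2 change of -0.76 (interval -1.96 to 0.43; limma adjusted p = 0.239). Fosl2 had 20.9, 18.4 and 17.9 FPKM in the mutants and 22.0, 23.2 and 18.5 FPKM in the controls, with a log2 change of -0.14 (interval -0.40 to 0.11; limma adjusted p = 0.299).

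One library of each group lay at an end of the AT2 set: mutant C was the lowest and control B the highest of the 6 libraries for all 7 members, Fosl2 included. For some members mutant C was lowest by little, as for Jund (295.4 FPKM, against 295.7 FPKM in mutant A) and Junb (280 against 286 FPKM). Without control B, Dusp1, Fosb and Junb remained lower, at log2 changes of -1.90, -1.00 and -0.61 and limma adjusted p of 0.000652, 0.0195 and 0.0408. Within postnatal day 8 alone, 2 libraries a group, only Dusp1 of the 7 was called lower, at -2.35 (limma adjusted p = 0.0103), while Fosb stood at -1.34 (0.0721) and Junb at -0.93 (0.155). Day 9 has 1 library a group. Other measures moved with the groups as well. The summed level of 8 endothelial markers was 49.2 to 75.5 FPKM in mutant and 182 to 236 FPKM in control AT2 libraries, and all 8 were called lower. The summed level of 7 leukocyte markers was 14.6 to 34.8 FPKM in mutants and 53.3 to 171 FPKM in controls, and all 7 were called lower. The summed AT1 markers were 708 to 1015 FPKM in mutants and 2737 to 4076 FPKM in controls, with 5 of 8 called lower. The summed mesenchymal markers were 32.8 to 44.8 FPKM in mutants and 75.3 to 142 FPKM in controls, with 4 of 5 called lower and 1 higher. Over all loci tested in AT2 cells, 22.3% were called lower and 32.4% higher. Mitochondrial loci made up 8.85% to 12.8% of summed FPKM in mutants and 14.0% to 33.7% in controls. The part of these in the members' change was not tested.

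**Figure D3:**
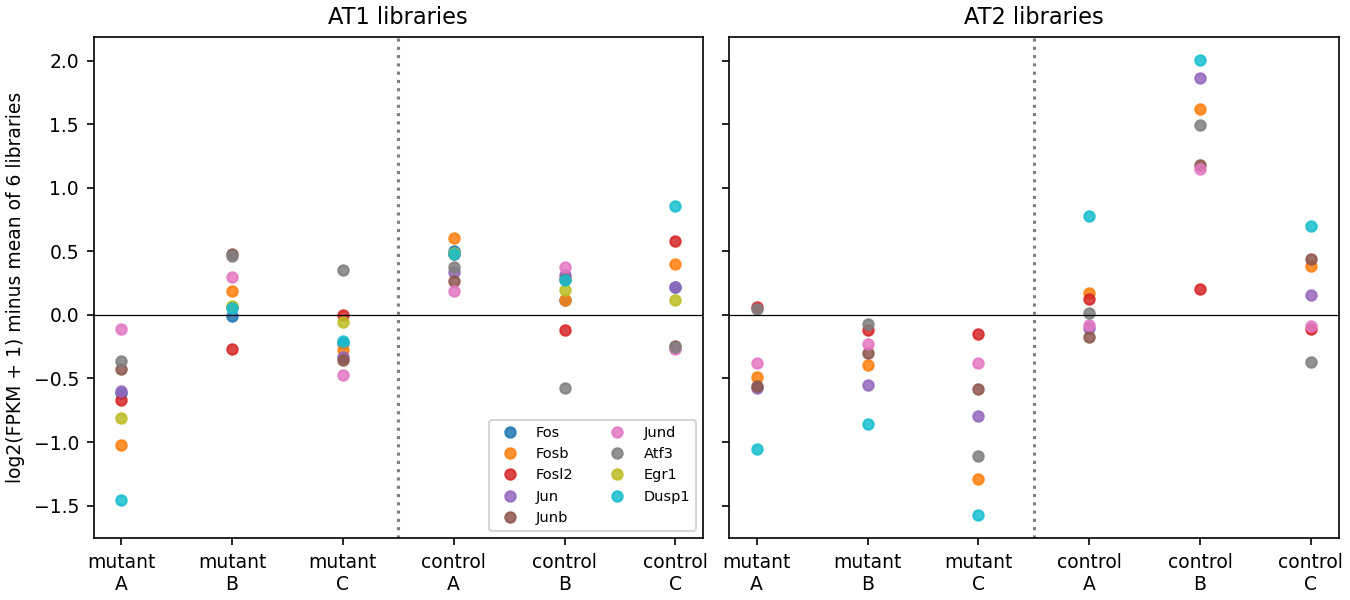
Log2(FPKM + 1) of each tested gene in every library, minus its mean over the 6 libraries of AT1 (left) or AT2 cells (right), mutants left of the dotted line and controls right of it. The points of AT1 mutant A lie below 0, those of AT2 mutant C lie below 0, and those of AT2 control B lie above 0.

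The mutant effect was also compared between the 2 cell types, which differ in cross and age as well, by the AT2 effect minus the AT1 effect over 12 libraries. None of the 7 members tested in both differed by limma after adjustment over 10336 loci, and none had an unadjusted p under 0.05. Of all these loci, 442 (4.28%) were called below 0 and 415 above 0. Dusp1 came nearest, at -1.25 (95% confidence interval -2.53 to 0.03; limma adjusted p = 0.2). For Fosb the difference was -0.70 (interval -1.92 to 0.51), and for Junb -0.76 (interval -1.76 to 0.25). The other differences were -0.70 for Jun, -0.46 for Jund, -1.06 for Atf3 and 0.48 for Fosl2. The calls of Dusp1, Fosb and Junb in AT2 cells are thus not shown to differ from AT1 cells.

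In whole lung at postnatal day 14, with 1 library a group and no test, most members were higher in the mutant. On the log2(FPKM + 1) scale 8 of 10 were at least 2-fold higher, against 11.9% of the 13717 loci compared, and none was 2-fold lower, against 11.4%. A locus was compared if either lung library reached 1 FPKM. Fosl1 and Fosb, both among the 8, reached it in the mutant library only, so they entered the count through the group where they were high. The median log2 ratio of the members was 1.96, against 0.036 over all loci compared. Fos had 124 FPKM in the mutant lung and 12.2 FPKM in the control lung, a log2 ratio of 3.24. Atf3 had the largest ratio, 3.40, with 37.1 FPKM in the mutant and 2.60 FPKM in the control lung. Egr1 and Junb were alike in size.

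Egr1 had 86.8 FPKM in the mutant and 10.4 FPKM in the control lung, a log2 ratio of 2.94. Junb had 244 FPKM in the mutant and 30.9 FPKM in the control lung, also 2.94. Jund, usually the steady Jun gene, had 439 FPKM in the mutant and 141 FPKM in the control lung, a log2 ratio of 1.63. Both late Fos genes were higher too. Fosl2 had 62.2 FPKM in the mutant and 15.2 FPKM in the control lung, a log2 ratio of 1.96, and Fosl1 had 1.19 FPKM in the mutant lung and was listed at 0 in the control lung. Fosb was low in both, with 5.22 FPKM in the mutant and 0.597 FPKM in the control lung (1.96).

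Jun and Dusp1 stood apart from the other members in the lung. Jun had 82.6 FPKM in the mutant and 117 FPKM in the control lung, a log2 ratio of -0.49. Dusp1 had 184 FPKM in the mutant and 149 FPKM in the control lung, 0.31, which turned to -0.03 when the libraries were rescaled to equal summed FPKM without small RNA loci. Small RNA loci made up 2.46% of summed FPKM in the mutant and 32.5% in the control lung, and the summed endothelial markers stood at 570 FPKM in the mutant and 1763 FPKM in the control lung. The summed AT1 markers (659 FPKM in the mutant and 2764 FPKM in the control lung), AT2 markers (8058 and 24982 FPKM in mutant and control) and mesenchymal markers (800 and 1773 FPKM in mutant and control) were lower too. The summed leukocyte markers were higher, 353 FPKM in the mutant and 246 FPKM in the control lung, but the 8 genes went both ways (median log2 ratio 0.20). Cd68, Fcer1g and Laptm5 (3 of 8) were at least 2-fold higher and none was 2-fold lower. Of all loci compared, 11.9% were 2-fold higher and 11.4% 2-fold lower. Csf1r (-0.82), Ptprc (-0.72), Cd52 (-0.49) and Coro1a (-0.28) had log2 ratios below 0. The part of small RNA loci and of these markers in the members' ratios was not tested. Under the rescaling without small RNA loci, 8 members still had at least 2-fold higher values. In the lung libraries Fos, Fosb, Jun, Junb, Atf3 and Egr1 lay below every AT1 library of either group, whereas Jund in the mutant lung, at 439 FPKM, lay above all of them. These sets differ in age, in sorting and in small RNA share, so their levels are not like for like, and no test was made across them.

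**Figure D4:**
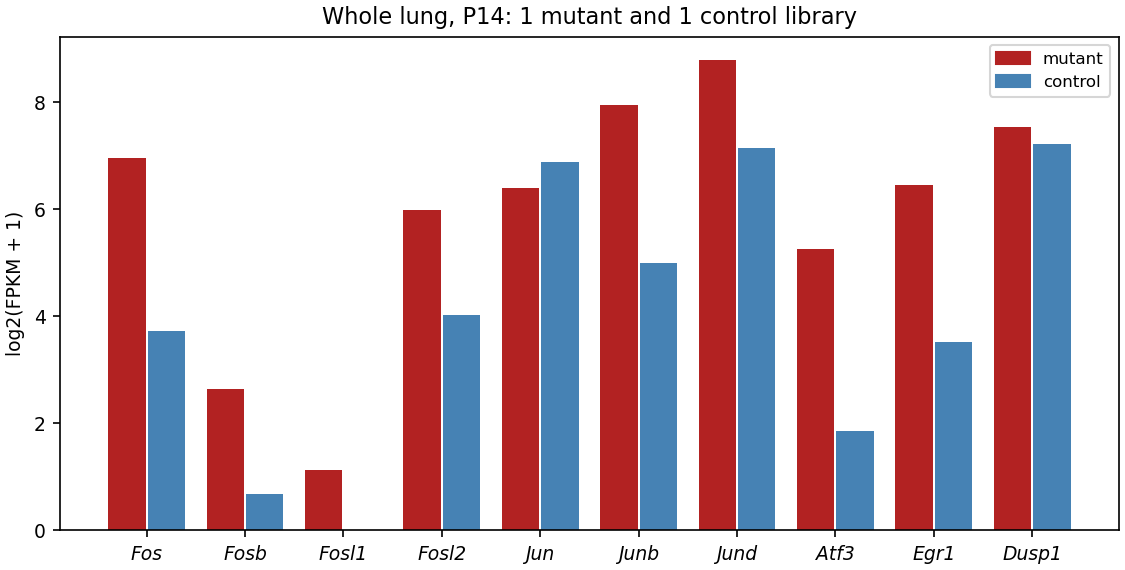
Log2(FPKM + 1) of each gene in whole lung at postnatal day 14, the mutant library in red left of the control library in blue. The mutant bar is higher for every gene but Jun, and Fosl1 is listed at 0 in the control.

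Other genes of the same response were read from lists. Of 28 other immediate early genes, 3 were called lower and none higher among 28 tested in AT1 cells (median log2 change -0.27). There, 6.22% of all loci were called lower and 11.6% higher. In AT2 cells 11 were lower and none higher among 22 tested (median -0.76), where 22.3% of all loci were called lower and 32.4% higher. Klf4, a Kruppel-like factor, averaged 54.5 ± 6.56 FPKM in mutant and 96.8 ± 5.50 FPKM in control AT1 cells, and 24.0 ± 4.29 FPKM in mutant and 92.2 ± 66.3 FPKM in control AT2 cells (SD, n = 3 each). Its log2 changes were -0.82 ± 0.14 (SE; limma adjusted p = 0.0113) and -1.69 ± 0.42 (SE; limma adjusted p = 0.0118). The orphan nuclear receptor gene Nr4a3 was lower in both cell types as well (-1.59 and -2.05), as was Mcl1, a survival gene of the Bcl2 family, in AT1 cells (-0.74). Egr2, a relative of Egr1, averaged 4.27 ± 0.38 FPKM in mutant and 24.0 ± 6.24 FPKM in control AT2 cells (SD, n = 3 each), a log2 change of -2.22 with limma adjusted p = 8.5e-05. In the lung 10 of 26 were at least 2-fold higher and 1 was 2-fold lower, against 11.9% and 11.4% of all loci compared there.

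Among 11 other basic leucine zipper genes that can pair with or compete with AP-1, 1 of 9 tested was lower in AT1 cells and 3 of 9 in AT2 cells, with none higher. Across all loci tested, 6.22% were called lower and 11.6% higher in AT1 cells, and 22.3% lower and 32.4% higher in AT2 cells. The genes called lower were Jdp2, a repressor that dimerizes with Jun, in AT1 cells (-0.75; limma adjusted p = 0.0378), and Maf (-1.60) and Batf (-1.64) among those in AT2 cells. Of 15 MAP kinase cascade and serum response factor genes none was called among 15 tested in AT1 cells, where 6.22% of all loci were called lower and 11.6% higher. In AT2 cells 3 of 13 were called higher and none lower, where 32.4% of all loci were called higher and 22.3% lower. The stress kinase gene Mapk8 (0.34) and the coactivator gene Mkl2 (0.42) were among the 3.

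The relatives of Dusp1 moved both ways. Of 9 other MAP kinase phosphatase genes, 2 of 9 tested were lower and 1 higher in AT1 cells, and 5 of 7 were lower and 1 higher in AT2 cells. Over all loci tested, 6.22% were called lower and 11.6% higher in AT1 cells, and 22.3% lower and 32.4% higher in AT2 cells. Dusp6 and Dusp7, phosphatases for ERK, were lower in both: Dusp6 by log2 changes of -1.01 in AT1 and -1.13 in AT2 cells, and Dusp7 by -1.99 and -0.95. Dusp4 was lower in AT2 cells (-1.09). Dusp9 was higher, at 1.60 in AT1 cells and 1.42 in AT2 cells, from 7.51 ± 1.53 FPKM in mutants against 1.80 ± 0.43 FPKM in controls in the AT1 set (SD, n = 3 each).

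Heat shock genes, which respond to protein damage, gave 2 called higher and none lower of 8 tested in each cell type. Of all loci tested, 11.6% were called higher and 6.22% lower in AT1 cells, and 32.4% higher and 22.3% lower in AT2 cells. The heat shock medians differed in sign (0.23 in AT1 and -0.48 in AT2 cells). The mitochondrial chaperone genes Hspd1 (0.97) and Hspe1 (0.77) were higher in AT1 cells, and Hspd1 (0.86) and Hsph1 (0.73) in AT2 cells. Of 13 genes known as AP-1 targets, 3 of 10 tested were higher and none lower in AT1 cells, and 4 of 8 were higher and 3 lower in AT2 cells. The shares of all loci were 11.6% higher and 6.22% lower in AT1 cells, and 32.4% higher and 22.3% lower in AT2 cells. Plaur, the urokinase receptor gene, averaged 130 ± 29.5 FPKM in mutant and 42.8 ± 5.40 FPKM in control AT1 cells (SD, n = 3 each; log2 change 1.57), and it was higher in AT2 cells too (2.65). Sprr1a, a cornified envelope gene whose close family members may share reads, averaged 1206 ± 562 FPKM in mutant and 1.39 ± 1.20 FPKM in control AT1 cells (SD, n = 3 each), a log2 change of 8.99 with limma adjusted p = 7.46e-05, and was higher in AT2 cells as well (4.81). In AT2 cells Ccnd1 (1.29) was higher, and Cd44 (-0.95) and the heme oxygenase gene Hmox1 (-2.47) were lower.

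Genes with the most similar pattern were ranked by Pearson's r of log2(FPKM + 1) centred within each cell type, over 12 libraries and 8028 genes. Fosl2 was most like Ero1l, an oxidase of the endoplasmic reticulum (r = 0.97), then Mvb12b (0.95), Prkcz, Atxn2 and Wwp1 (0.94 each). Since Fos had no AT2 row, 5 further rankings were made after values had been seen. In them Dusp1 was most like Btg2 (0.97), Fosb like Dusp1 (0.96), Jun like Klf4 (0.96) and Junb like Ier2 (0.97), and Fos, over the 6 AT1 libraries alone, like Pcgf2 (0.99). These points share the group difference and the library effects described above.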

How the data were processed

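RNA from sorted AT1 cells, AT2 cells and whole lobes was made into poly(A) libraries and read as pairs of 76 nucleotides, per the labels' protocols. Bowtie2 2.2.3, TopHat2 2.0.14, Cufflinks 2.2.1 with Cuffdiff and Cuffnorm, and the mm10 build are named, per the submitters' processing notes. The values used are FPKM as the authors deposited them. FPKM are not counts, so no count model was used, and depth per library is not given in the sources used here.

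Values were taken as log2(FPKM + 1). Loci with at least 1 FPKM in at least 3 of the libraries compared were tested with limma 3.58.1 (R 4.3.3, trended prior variance, two-sided, Benjamini-Hochberg adjustment over all loci tested, threshold 0.05), separately in AT1 and AT2 cells, and over 12 libraries for the AT2 effect minus the AT1 effect. The scripts were tested on simulated data. The 1 lung library per group was compared by a ratio, with 2-fold as the limit. All 10 members are named; of each wider list, at most 3 called genes per direction and cell type, with at least 5 FPKM in the higher group and the largest changes, are named. One gene that this rule names is not reported here. The members and lists were chosen with earlier results of these data known. The motifs, and the name patterns for small RNA and mitochondrial loci, were chosen after the files had been read. In AT1 cells libraries of the same letter deviated together (r = 0.24, 0.36 and 0.48), so the letters were taken to pair the samples. In AT2 cells they did not (0.11, -0.12 and 0.13). The main fits left the letters out, so the AT1 standard errors, intervals and p-values ignore this pairing. A replicate block, which uses the letters, was run as an alternative only. Alternatives were another pseudocount, other filters, 3 rescalings, one prior variance, a replicate block, leaving out each library, and postnatal day 8 alone, the last chosen after seeing the data.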

Additional observations from a re-analysis of the deposited data

Results flagged for a closer look

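Of the members whose mutant libraries all lay below their control libraries in sorted cells, 6 had a whole-lung ratio above 0, the opposite direction, or 5 when the lung libraries were rescaled to equal summed FPKM without small RNA loci, where Dusp1 stood at -0.03. Against AT1 cells these were Fos (lung log2 ratio 3.24) and Egr1 (2.94), against AT2 cells Fosb (1.96), Junb (2.94) and Jund (1.63), and against both cell types Dusp1 (0.31). The lung ratio was above 0 for 3 of 4 such members against AT1 cells and for 4 of 5 against AT2 cells, and for 28.1% and 38.1% of all such loci compared in the lung. With 1 lung library per group, the difference between lung and sorted cells was not tested.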

How the results depend on the processing

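In AT1 cells no member was called higher under any of the 14 alternatives, and the number called lower was 0 throughout except without control B, so that leaving out 1 library gave 0 to 1. In AT2 cells the number called lower was 3; it was 1 with no filter on low values and 1 within postnatal day 8, and leaving out 1 library gave 1 to 4. With no filter, Fosb (limma adjusted p = 0.0542) and Junb (0.0887) did not pass; with equal summed FPKM Junb did not (0.168) and Jun did (0.0347). The number with a different effect in AT2 and AT1 cells was 0, but 1, Fosl2, under equal summed FPKM (1.18) and under equal summed FPKM without mitochondrial and small RNA loci (0.85). Under equal summed FPKM the difference turned sign for Fosb (0.015), Jun (0.026) and Jund (0.26), while the median difference over all loci went to 0.67 under it and to 0.39 without those loci, against 0.07 as deposited, and calls above 0 went to 3534 and 2311, against 415. Fosl2 in AT2 cells turned to 0.41, or to 0.14 without those loci. These rescalings moved the median of all loci in AT2 cells by their own scaling, to 0.61 and 0.35, with 12.6% and 21.4% of called loci lower, against 40.7% as deposited and 49.3% with equal medians. In AT1 cells equal summed FPKM moved it to -0.12, with 48.9% of called loci lower, or 44% without those loci, against 34.9%. With the replicate block no AT1 member was called (Dusp1 had the lowest limma adjusted p, 0.072) and 1359 of all AT1 loci were lower, against 785 without it. In AT2 cells, whose letters did not pair, the block gave 4 members lower, Jun among them. The 8 lung members at least 2-fold higher remained 8 in number under each alternative. The causes were not tested. Unknown depth and 3 libraries a group limit what could be detected.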
